A study of Homo sapiens with 18 samples.

Results

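The 4 FGF receptor genes FGFR1, FGFR2, FGFR3 and FGFR4, TACC3 and the ERK feedback or readout genes SPRY2, SPRY4, DUSP6, ETV4 and ETV5 were followed by CAGE-seq, a method that reads RNA from its capped 5′ end, in bladder cancer cell lines with changed WWOX and AP-2. They were chosen by symbol, and 10 of the 16575 genes in the table were members. Of these, 8 reached 5 CPM (reads of a gene scaled to a common library total) in at least 1 library, while FGFR1 and FGFR4 did not and were tested only in the fit without a filter. The established bladder cancer lines used, 3 in all, were RT-112, CAL-29 and HT-1376. Each line carried 2 lentiviral transductions, the first with WWOX or its control vector and the second with AP-2α, AP-2γ or its control vector. The 6 variants were KK (both control vectors), KA (AP-2α), KC (AP-2γ), WK (WWOX), WA (WWOX and AP-2α) and WC (WWOX and AP-2γ). Each variant had 1 library per line, 18 in all, and all libraries, KK included, came from cells transduced with both vectors and kept under antibiotic selection. The inserts were driven by a CMV promoter. The study asked whether WWOX and AP-2 change the same signaling genes in opposite directions.

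FGF receptors are tyrosine kinases at the cell surface which, once bound by an FGF ligand and heparan sulfate, recruit FRS2 and GRB2 and pass a signal through RAS, RAF and MEK to ERK. ERK then raises the transcription of its own brakes, among them the Sprouty proteins SPRY2 and SPRY4 and the ERK phosphatase DUSP6, and of the ETS factors ETV4 and ETV5, so that RNA of these genes is widely read as a measure of ERK activity. FGFR3 is the receptor most often altered in urothelial carcinoma, and its fusion with the neighbouring TACC3, a spindle protein gene, is known from RT-112 cells. WWOX is a tumor suppressor with WW domains that binds AP-2 proteins, which are transcription factors of epithelial cells. A tag at a 5′ end is counted once per RNA molecule, so levels of different genes in CPM do not scale with transcript length, and a tag at the start of FGFR3 cannot tell the intact gene from a fusion that keeps this start.

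The promoters of FGFR3, TACC3, SPRY2 and DUSP6 are printed because these genes differed between lines and because AP-2 was one of the agents. Other members, among them FGFR2, also differed and are not printed. They were taken from the RefSeq table on GRCh38.p14, from 250 bases before to 50 bases after an annotated start, 5′ to 3′ on the strand of the gene. The table held 7 of the members, with several starts for FGFR2, FGFR4 and SPRY2, and ETV4, ETV5 and FGFR1 were not matched. For FGFR3 (chr4:1793043-1793342, plus strand) capitals mark GC boxes, searched as GGGCGG on both strands, and for the others they mark AP-2 matches, searched as GCCNNNGGC.
FGFR3: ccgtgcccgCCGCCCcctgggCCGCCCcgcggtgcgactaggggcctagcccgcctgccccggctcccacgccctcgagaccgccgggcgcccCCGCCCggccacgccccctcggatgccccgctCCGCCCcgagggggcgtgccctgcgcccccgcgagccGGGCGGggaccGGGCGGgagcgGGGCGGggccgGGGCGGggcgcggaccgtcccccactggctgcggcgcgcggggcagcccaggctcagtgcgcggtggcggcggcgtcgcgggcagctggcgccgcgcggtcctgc
TACC3: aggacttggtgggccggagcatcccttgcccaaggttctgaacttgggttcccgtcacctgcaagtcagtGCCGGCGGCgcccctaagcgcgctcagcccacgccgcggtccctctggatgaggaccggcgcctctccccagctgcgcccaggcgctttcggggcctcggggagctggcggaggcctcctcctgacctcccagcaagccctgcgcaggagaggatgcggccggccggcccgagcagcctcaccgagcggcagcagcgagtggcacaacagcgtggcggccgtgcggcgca
SPRY2: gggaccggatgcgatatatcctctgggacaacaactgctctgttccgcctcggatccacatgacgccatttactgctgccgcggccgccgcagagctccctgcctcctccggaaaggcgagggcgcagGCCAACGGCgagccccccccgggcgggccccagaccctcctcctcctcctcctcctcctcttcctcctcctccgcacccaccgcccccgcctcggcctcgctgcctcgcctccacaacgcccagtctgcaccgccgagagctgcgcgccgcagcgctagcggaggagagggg
DUSP6: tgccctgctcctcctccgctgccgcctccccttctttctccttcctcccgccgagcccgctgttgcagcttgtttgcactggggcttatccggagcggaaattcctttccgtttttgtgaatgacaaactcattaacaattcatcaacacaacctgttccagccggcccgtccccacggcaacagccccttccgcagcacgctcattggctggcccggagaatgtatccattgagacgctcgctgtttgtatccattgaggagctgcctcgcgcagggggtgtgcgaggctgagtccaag
The TACC3 window (chr4:1720381-1720680, plus strand) held 1 AP-2 match, whose first base lay 180 bases before the start. The first SPRY2 window (chr13:80341077-80341376, minus strand) held 1 AP-2 match 122 bases before the start and 1 match to the ETS letters CCGGAA, 142 bases before it. The DUSP6 window (chr12:89352452-89352751, minus strand) and the FGFR3 window held neither, and the FGFR3 window held 8 GC boxes with a GC content of 86.3%. The 5 FGFR2 windows also held neither. Of all 34796 windows of this length, 23.2% held the AP-2 letters, 17.2% the ETS letters and 44.9% a GC box, so the matches are descriptions of these letters and not sites. FGFR3 (chr4:1793293-1808872) and TACC3 (chr4:1712858-1745171) lie on the same strand in GENCODE 44, 48122 bases apart. The other members with a printed place are FGFR2 (chr10:121478332-121598458, minus strand), FGFR4 (chr5:177086905-177098144, plus), SPRY2 (chr13:80335976-80341126, minus), SPRY4 (chr5:142310427-142326455, minus), DUSP6 (chr12:89347235-89352501, minus), ETV4 (chr17:43527844-43579620, minus) and ETV5 (chr3:186046314-186110318, minus).

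Between 13357102 and 17958572 reads fell on genes in a library, and 3 reads, the limit that a count of 0 allows, were worth 0.158 to 0.213 CPM. The library labelled CAL-29 KC stood apart, with a median correlation of 0.940 to the HT-1376 libraries against 0.741 to the other CAL-29 libraries, and it is therefore shown apart and left out of the fits unless stated. The 15 urothelial and epithelial markers, all past the filter, summed to 20470 to 26280 CPM in RT-112, 9899 to 15450 CPM in HT-1376 and 5076 to 9181 CPM in CAL-29. Of 14 blood, endothelial and fibroblast markers 5 were analysed here, and they summed to 15.9 to 20.5, 5.19 to 24.8 and 6.08 to 18.4 CPM. In such bulk samples fewer cells of a kind and less RNA per cell cannot be told apart. TFAP2A was 46.8 CPM in RT-112 KA against 18.01 CPM in KK, and TFAP2C was 264 CPM in RT-112 KC against 58.0 CPM. In RT-112 WA, labelled AP-2α, TFAP2A was 25.3 CPM against 20.3 CPM in WK, while TFAP2C was 180 CPM against 56.2 CPM. In HT-1376 TFAP2A was 101 CPM in KA against 69.0 CPM in KK, but 69.9 CPM in WA against 76.9 CPM in WK. WWOX was 155 CPM in CAL-29 WK against 63.7 CPM in KK, but in RT-112 it was 22.3 against 26.0 CPM and in HT-1376 18.6 against 22.4 CPM. Tags from the vector need not start at the native promoters, so these levels do not check the inserts, and the WWOX and AP-2 groups are those of the labels.

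FGFR3, a receptor of the urothelium, lay at 111.96 to 156 CPM in the 6 RT-112 libraries (median 124), at 0 to 0.97 CPM in the 6 HT-1376 libraries (median 0.53) and at 3.04 to 37.5 CPM in the 5 CAL-29 libraries (median 12.9). The 3 lines did not overlap. Between RT-112 and HT-1376 the fitted difference was 7.08 ± 0.31 (SE) on the log2(CPM + 0.5) scale (adjusted p = 3.46e-10 in limma with Benjamini-Hochberg adjustment, as for every adjusted p below), between RT-112 and CAL-29 3.57 ± 0.33 (adjusted p = 8.43e-07) and between HT-1376 and CAL-29 -3.51 ± 0.33 (adjusted p = 1.24e-06). Since HT-1376 had between 0 and 17 reads of FGFR3 per library, its differences depend on the pseudocount, and the one to RT-112 ranged from 5.70 to 8.77 over the alternatives.

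FGFR2, which in epithelia binds FGFs secreted by stroma, was lowest in RT-112 by the median of the libraries. It lay at 4.02 to 9.91 CPM in RT-112 (median 6.79), 3.78 to 19.9 CPM in HT-1376 (median 9.60) and 11.7 to 47.9 CPM in CAL-29 (median 17.9). RT-112 and CAL-29 did not overlap, whereas HT-1376 overlapped both. HT-1376 was below RT-112 in WK (3.78 against 9.91 CPM) and WC (4.49 against 6.63 CPM), and above it in the other variants. FGFR2 was lower in RT-112 than in CAL-29 by a log2 difference of -1.68 ± 0.46 (adjusted p = 0.00487), but with TMM scaling of the libraries this was -0.95 (adjusted p = 0.0628). FGFR1 was low in all lines, at 0.17 to 1.47 CPM in RT-112, 0 to 0.62 CPM in HT-1376 and 0.96 to 1.77 CPM in CAL-29, or at most 32 reads. Without the filter FGFR1 was higher in RT-112 than in HT-1376 by 0.84 ± 0.21 (adjusted p = 0.00394) and lower in RT-112 than in CAL-29 by -0.68 ± 0.23 (0.0173) and in HT-1376 than in CAL-29 by -1.52 ± 0.23 (9.01e-05). FGFR4, a receptor best known from liver, lay at 0.63 to 2.17 CPM in RT-112, 0.20 to 0.80 CPM in HT-1376 and 0.44 to 1.25 CPM in CAL-29, and without the filter it was higher in RT-112 than in HT-1376 by 0.94 ± 0.21 (adjusted p = 0.00144). In RT-112 the WK, WA and WC libraries had 1.80, 2.07 and 2.17 CPM of FGFR4 and KK, KA and KC 0.94, 0.63 and 0.80 CPM, and in HT-1376 they had 0.80, 0.45 and 0.66 CPM against 0.20, 0.34 and 0.28 CPM. The groups, of 3 to 37 reads a library, overlapped in neither line, as for 9.48% and 12.8% of the genes past the filter in that direction. Without the filter FGFR4 passed for WWOX neither in RT-112 (0.97 ± 0.23, adjusted p = 0.308) nor in HT-1376 (0.55 ± 0.23, 0.162), and it overlapped in CAL-29.

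TACC3 was high in RT-112 and HT-1376 and lower in CAL-29. It lay at 89.9 to 138 CPM in RT-112 (median 119), 60.1 to 81.9 CPM in HT-1376 (median 78.2) and 10.5 to 54.4 CPM in CAL-29 (median 19.4), without overlap between the lines. RT-112 and HT-1376 exceeded CAL-29 by 2.42 ± 0.30 (adjusted p = 9.39e-06) and 1.82 ± 0.30 (adjusted p = 0.000172) on the log2 scale, while RT-112 and HT-1376 differed by 0.60 ± 0.28 (adjusted p = 0.0754). HT-1376 thus had TACC3 at 60.1 CPM or more with FGFR3 below 1 CPM, and in RT-112 both were at 89.9 CPM or more. TMEM129, which lies beside TACC3, and LETM1, a mitochondrial gene of the same region, were also higher in RT-112 than in CAL-29, by 2.52 ± 0.23 and 1.34 ± 0.15.

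Of the feedback genes, ETV4 and DUSP6 were highest in RT-112 and SPRY2 and SPRY4 in HT-1376 by the median of the libraries. For DUSP6 and SPRY4 this order depended on the variant. DUSP6 was higher in HT-1376 than in RT-112 in WA (76.1 against 46.0 CPM) and WC (62.5 against 56.1 CPM), and lower in the other variants. SPRY4 in HT-1376 was below RT-112 in KK (3.29 against 3.38 CPM) and KC (5.74 against 6.41 CPM), and above it in the other variants. ETV4 lay at 118 to 202 CPM in RT-112 (median 134), 3.16 to 18.6 CPM in HT-1376 (median 15.3) and 2.87 to 27.4 CPM in CAL-29 (median 11.8). RT-112 lay above both other lines, by 3.56 ± 0.41 (adjusted p = 5.57e-06) and 3.67 ± 0.44 (adjusted p = 7.31e-06), and those lines overlapped over most of their range. DUSP6 lay at 46.0 to 114 CPM in RT-112 (median 70.4), 13.8 to 76.4 CPM in HT-1376 (median 47.6) and 9.5 to 35.7 CPM in CAL-29 (median 25.8). RT-112 and CAL-29 did not overlap, with a difference of 1.73 ± 0.46 (adjusted p = 0.00407). SPRY2 lay at 2.0 to 4.52 CPM in RT-112 (median 2.64), 4.75 to 29.6 CPM in HT-1376 (median 12.5) and 3.6 to 7.13 CPM in CAL-29 (median 5.25). HT-1376 exceeded RT-112, with a difference of -1.93 ± 0.33 for RT-112 against HT-1376 (adjusted p = 0.000203), and CAL-29, with 1.31 ± 0.36 (adjusted p = 0.0062). SPRY4 lay at 3.38 to 6.41 CPM in RT-112, 3.29 to 15.4 CPM in HT-1376 and 1.82 to 8.18 CPM in CAL-29. All 3 ranges overlapped, and HT-1376 exceeded CAL-29 by 1.25 ± 0.38 (adjusted p = 0.0114). ETV5 lay at 28.5 to 43.9, 12.8 to 38.0 and 8.62 to 65.3 CPM in RT-112, HT-1376 and CAL-29, ranges that overlapped, and no difference of ETV5 between lines passed the threshold as scaled. With TMM scaling ETV5 (adjusted p = 0.0127), TACC3 (0.015) and DUSP6 (0.0289) passed between RT-112 and HT-1376, DUSP6 between HT-1376 and CAL-29 (0.0285) and SPRY4 between RT-112 and CAL-29 (0.0314).

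Of the 8 members tested, 4 passed the threshold between RT-112 and HT-1376, where 61.9% of all genes did, 5 between RT-112 and CAL-29 (71.5%) and 5 between HT-1376 and CAL-29 (61.0%). By direction these were 2 higher and 2 lower in RT-112 than in HT-1376 (19.2% and 42.7% of all genes), 4 and 1 in RT-112 than in CAL-29 (15.3% and 56.2%), and 3 and 2 in HT-1376 than in CAL-29 (17.6% and 43.4%). With TMM scaling, 47.8%, 45.6% and 47.0% of the genes called were higher, against 31.0%, 21.4% and 28.9% as given. Counted in either direction, the members' shares lay near or below those of all genes. The median over all genes was -0.43, -0.84 and -0.47 in these contrasts, and TMM scaling moved it up by 0.34, 0.69 and 0.37. The members had medians of 0.64, 1.00 and 0.51. With TMM scaling, edgeR or DESeq2 the difference of SPRY4 between RT-112 and HT-1376 (-0.97 ± 0.35, adjusted p = 0.0277) and that of FGFR2 between HT-1376 and CAL-29 (-1.14 ± 0.46, adjusted p = 0.0451) no longer passed. They were also lost on leaving out any one of several libraries, 7 for SPRY4 (RT-112 KA, WK, WA and WC and HT-1376 WK, WA and WC, adjusted p 0.0527 to 0.0844) and 11 for FGFR2 (RT-112 KK, KA, KC and WA, HT-1376 KC, WK, WA and WC and CAL-29 WK, WA and WC, adjusted p 0.0534 to 0.165).

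**Figure D1:**
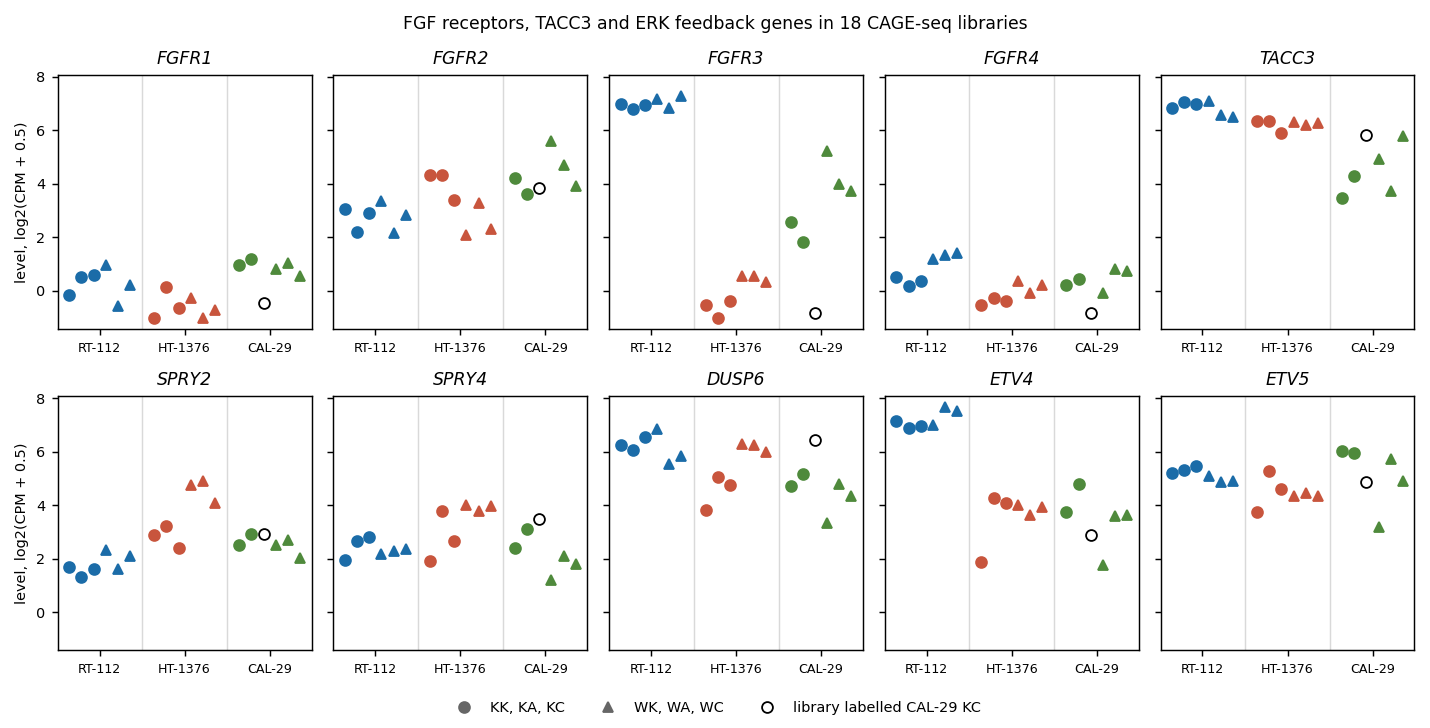
Level of each of the 10 genes as log2(CPM + 0.5), with 1 point per library, circles for KK, KA and KC, triangles for WK, WA and WC, each line's libraries in the order KK, KA, KC, WK, WA, WC, and an open circle for the library labelled CAL-29 KC. FGFR3 separates the 3 lines, from 0 to 0.97 CPM in HT-1376 to 111.96 to 156 CPM in RT-112, and its open circle lies with HT-1376 at 0.06 CPM.

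Within HT-1376, the libraries labelled WWOX had higher SPRY2 and DUSP6 and lower FGFR2. SPRY2 was 26.3, 29.6 and 16.2 CPM in WK, WA and WC and 6.84, 8.74 and 4.75 CPM in KK, KA and KC, so that the groups did not overlap. The fitted difference was 1.75 ± 0.23 on the log2 scale (adjusted p = 0.0043), and it passed the threshold on leaving out each of the 17 libraries in turn. DUSP6 was 76.4, 76.1 and 62.5 CPM with WWOX and 13.8, 32.7 and 26.3 CPM without, again without overlap, a difference of 1.62 ± 0.33 (adjusted p = 0.0211). Of the control libraries, KK was the lowest for DUSP6, and the ratio was 5.56 for WK over KK against 2.33 for WA over KA and 2.38 for WC over KC. SPRY4 was 15.4, 13.3 and 15.1 CPM with WWOX and 3.29, 13.2 and 5.74 CPM without, a difference of 1.13 ± 0.37 that did not pass (adjusted p = 0.0865), although the libraries did not overlap. It passed with TMM scaling (0.0452), in DESeq2 (0.00914) and without HT-1376 KA or WA (0.0473 for each), while without HT-1376 KK or WK the difference of SPRY4 was 0.67 (adjusted p = 0.467 and 0.4685).

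FGFR2 in HT-1376 was 3.78, 9.27 and 4.49 CPM in WK, WA and WC and 19.9, 19.5 and 9.93 CPM in KK, KA and KC. It fell by 1.45 ± 0.28 on the log2 scale (adjusted p = 0.0175), to between 0.19 and 0.475 of the library with the same second transduction. FGFR3 had 17, 15 and 14 reads with WWOX and 3, 0 and 4 reads without, or 0.97, 0.96 and 0.77 CPM against 0.20, 0 and 0.28 CPM, where the 0 allows up to 3 reads. Its difference was 1.11 ± 0.24 (adjusted p = 0.0259), at levels under 1 CPM, and ranged from 0.43 with a pseudocount of 2 CPM, where it no longer passed (adjusted p = 0.194), to 2.83 over the alternatives. ETV4, ETV5 and TACC3 did not pass in HT-1376, and their WWOX and control libraries overlapped.

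In HT-1376, where 9.75% of all genes were called, 3 of the 8 members rose (4.70% of all 13022 genes did) and 1 fell (5.05%). Without overlap of the libraries, 4 members were higher (12.8% of all genes) and 1 lower (22.8%). With all 18 libraries in the fit the genes called dropped from 1269 to 141, SPRY2 still passed (adjusted p = 0.0222), and DUSP6 (0.0645), FGFR2 (0.0651) and FGFR3 (0.176) did not. DUSP6 also failed without HT-1376 KK, KA, WK, WA or WC (adjusted p 0.051 to 0.179), FGFR2 without HT-1376 KK, KA, WK or WA (0.0507 to 0.154), and FGFR3 without any one of the RT-112 libraries or without HT-1376 KK, KA, WK or WA (0.0534 to 0.161), and the count of all genes called then ranged from 184 to 3452. Markers of cell identity moved in the same libraries. Of the 15 epithelial markers KRT19 was higher with WWOX (2.67 ± 0.51) and GATA3 lower (-1.07 ± 0.21), and of the 3 blood, endothelial and fibroblast markers past the filter COL1A1 was higher (1.77 ± 0.39, at most 23.3 CPM) and CDH5 lower (-2.01 ± 0.30, at most 4.11 CPM). Their part in the result was not tested. The labels do not say whether libraries with the same first transduction came from separate transductions, so the p-values measure the spread between these libraries, which may be technical.

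Within CAL-29, the libraries labelled WWOX had higher FGFR3. FGFR3 was 37.5, 15.3 and 12.9 CPM in WK, WA and WC and 5.44 and 3.04 CPM in KK and KA, without overlap. The difference was 2.42 ± 0.30 on the log2 scale (adjusted p = 0.0122), a ratio of 6.89 for WK over KK and 5.04 for WA over KA, and it rests on these 4 libraries, since WC has no partner once the library labelled CAL-29 KC is left out. Of the 8 members FGFR3 alone rose (0.538% of all genes did) and none fell (0.192%), 0.730% of genes being called, of which 73.7% were higher and 57.3% with TMM scaling. FGFR3 was also the 1 member higher without overlap (9.0% of all genes). The call was lost in edgeR (adjusted p = 0.0808) and on leaving out RT-112 KK, KA, WK or WA (adjusted p 0.0514 to 0.0539). Leaving out CAL-29 KK, KA, WK or WA left no spread around the fit in CAL-29, so the shared variance came from the other lines. Such fits cannot check the call, and the difference of FGFR3 lay between 2.16 and 2.68 over all leave-outs. With all 18 libraries the difference was 3.14 (adjusted p = 0.00939). This fit counts the library labelled CAL-29 KC, with 1 read of FGFR3, as a CAL-29 control. That library correlated with HT-1376 (median 0.940) more than with CAL-29 (0.741), so this value is no check of the CAL-29 result.

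No feedback gene passed for WWOX in CAL-29, and WK had the lowest level of the 5 libraries for DUSP6, SPRY4, ETV4 and ETV5. DUSP6 was 9.5, 26.8 and 19.9 CPM in WK, WA and WC and 25.8 and 35.7 CPM in KK and KA. ETV4 was 2.87, 11.7 and 11.8 CPM with WWOX and 12.9 and 27.4 CPM without. ETV5 was 8.62, 51.8 and 29.2 CPM with WWOX and 65.3 and 60.9 CPM without. The groups of DUSP6 overlapped and those of the ETS genes did not. SPRY4 was 1.82, 3.82 and 2.98 CPM with WWOX and 4.71 and 8.18 CPM without. For ETV4, ETV5 and SPRY4 all WWOX libraries lay below both controls, as for 9.80% of all genes. The fitted differences were -0.90 ± 0.41 for DUSP6, -1.59 ± 0.56 for ETV4, -1.54 ± 0.54 for ETV5 and -1.09 ± 0.45 for SPRY4, and none passed the threshold (adjusted p 0.265 to 0.402). DESeq2 called ETV4 and ETV5 (adjusted p = 0.0328 and 0.0198). Without CAL-29 KA or WA the difference of ETV5 was -2.85, from KK and WK alone. Without CAL-29 KK or WK the difference of ETV5 was -0.23 (adjusted p up to 0.796) and that of DUSP6 -0.41 (up to 0.696). SPRY2 overlapped, with 5.25, 6.0 and 3.6 CPM against 5.16 and 7.13 CPM. FGFR2 was 47.9, 25.4 and 14.8 CPM with WWOX and 17.9 and 11.7 CPM without, overlapping, with a difference of 1.24 ± 0.35 (adjusted p = 0.175).

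In RT-112 no member passed, and limma called 0 genes, against 1021 (7.84%) at an unadjusted p under 0.05, 0 in edgeR and 54 in DESeq2, none of them a member. FGFR3 was 144, 114 and 156 CPM in WK, WA and WC and 126, 111.96 and 123 CPM in KK, KA and KC, a difference of 0.19 ± 0.24 (adjusted p = 0.96). ETV5 was the member whose libraries did not overlap in RT-112, at 33.3, 28.5 and 29.4 CPM with WWOX and 36.6, 39.2 and 43.9 CPM without (11.5% of all genes were lower in this way, 9.48% higher).

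The difference between lines was itself tested by the interaction of WWOX with the line. FGFR2 (adjusted p = 0.0368), FGFR3 (0.0418) and SPRY2 (0.049) passed, 3 of 8 members where 2.90% of all genes did, and DUSP6 lay beyond the threshold (0.0561). FGFR2 fell with WWOX in HT-1376 and was higher without passing in CAL-29, FGFR3 rose in both of these lines and was nearly level in RT-112, and SPRY2 rose in HT-1376. With all 18 libraries the same test called 7 genes and none of the members. In edgeR all 3 were lost (adjusted p = 0.0535 for FGFR2, 0.0691 for FGFR3 and 0.0515 for SPRY2), and FGFR3 also with TMM scaling (0.0518). FGFR2 (adjusted p 0.0517 to 0.116) and SPRY2 (0.089 to 0.191) were further lost on leaving out any RT-112 or HT-1376 library. FGFR3 was lost on leaving out any RT-112 library or HT-1376 KK, KA, WK or WA (0.0767 to 0.155). DUSP6 passed with TMM scaling (0.0236), edgeR (0.0404) and DESeq2 (6.91e-06). It also passed without CAL-29 KK, KA, WK or WA, fits in which CAL-29 had no spread of its own. DESeq2 also called the interaction for SPRY4 (0.00624) and ETV4 (0.0128).

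**Figure D2:**
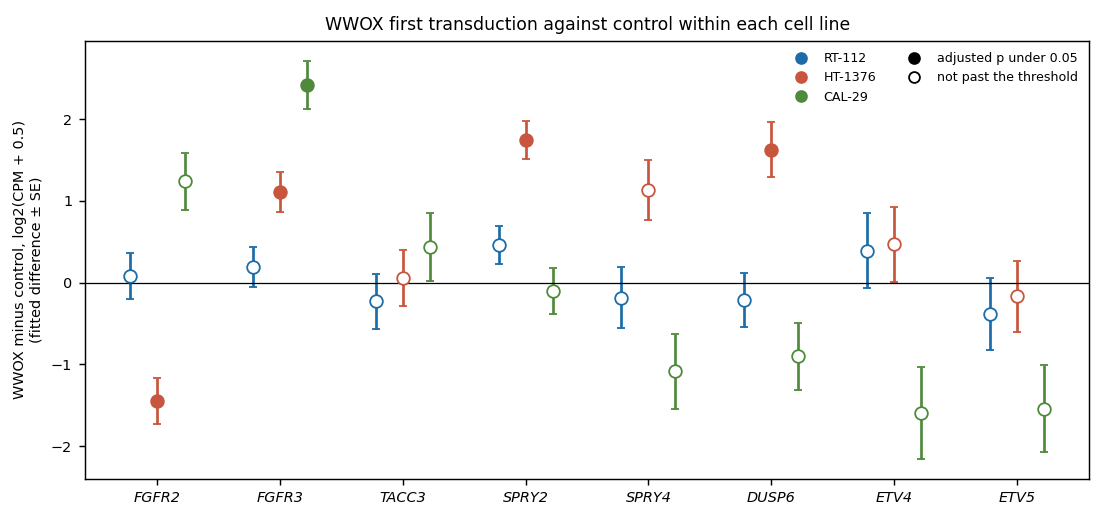
Fitted difference between the WWOX and control first transductions within each line for the 8 members tested, in log2(CPM + 0.5) ± SE, filled where the adjusted p was under 0.05. HT-1376 is filled for FGFR2 (-1.45), FGFR3 (1.11), SPRY2 (1.75) and DUSP6 (1.62), CAL-29 for FGFR3 (2.42), and RT-112 for none.

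**Figure D3:**
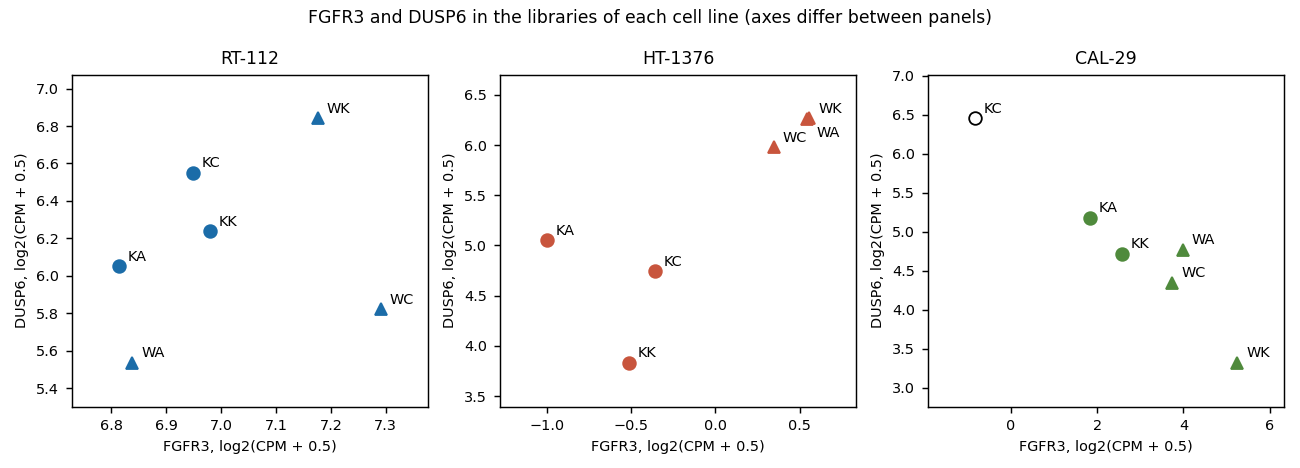
FGFR3 against DUSP6 in each library, both as log2(CPM + 0.5), 1 panel per line with its own axes and each point named by its variant. In HT-1376 the WWOX libraries (triangles) lie at higher FGFR3 and higher DUSP6, and in CAL-29 WK has the highest FGFR3 (37.5 CPM) and the lowest DUSP6 (9.5 CPM).

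Over the lines together, with terms for the line, WWOX and AP-2, no gene passed for WWOX (1598 or 12.3% at an unadjusted p under 0.05, 16 genes called by edgeR and 225 by DESeq2). FGFR3 was higher with WWOX by 1.07 ± 0.26 on the log2 scale (unadjusted p = 0.000973, adjusted p = 0.235). It was higher with WWOX in 8 of the 8 pairs of libraries that share the line and the second transduction, the library labelled CAL-29 KC left out. In RT-112 the pair of WA and KA was nearly level (114 against 111.96 CPM), and the HT-1376 pairs had at most 17 reads a library. The share of all genes higher in every pair was not counted. The call of FGFR3 depended on the tool, since DESeq2 gave a difference of 1.54 with an adjusted p of 0.00405 and limma and edgeR none. SPRY2 was higher by 0.75 ± 0.27 (adjusted p = 0.33) and ETV5 lower by -0.60 ± 0.27 (adjusted p = 0.398), or by -0.39 without CAL-29 WK (0.434).

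AP-2, grouped by the labels, changed no member past the threshold. The AP-2α group holds RT-112 WA, with its TFAP2C of 180 CPM. For AP-2α over both first transductions limma called 0 genes (199 or 1.53% at an unadjusted p under 0.05, 1 gene in edgeR and 1 in DESeq2) and for AP-2γ 0 genes (343 or 2.63%, 2 and 12). The largest differences among the members with AP-2α were 0.89 ± 0.39 for ETV4, 0.68 ± 0.35 for SPRY4 and 0.65 ± 0.32 for ETV5 (adjusted p = 0.9999 for each), and with AP-2γ 0.73 ± 0.41 for ETV4 (adjusted p = 0.9994). The lowest were -0.50 for FGFR3 with AP-2α and -0.50 for FGFR2 with AP-2γ. In RT-112, HT-1376 and CAL-29 FGFR3 was 111.96, 0 and 3.04 CPM in KA against 126, 0.20 and 5.44 CPM in KK. In WA it was 114, 0.96 and 15.3 CPM against 144, 0.97 and 37.5 CPM in WK, so lower with AP-2α in every pair. The share of all genes lower in every such pair was not counted. Without HT-1376 KK the AP-2α values of ETV4 and SPRY4 were 0.57 and 0.42 and the AP-2γ value of ETV4 0.42, and without CAL-29 WK the AP-2α values of ETV4 and ETV5 were 0.58 and 0.30 and the AP-2γ value of ETV4 0.45. In HT-1376, where KK was the lowest of the 6 libraries for ETV4, ETV5, SPRY4 and DUSP6, the ratios of KA and KC over KK were 5.87 and 5.16 for ETV4 and 2.98 and 1.88 for ETV5. With WWOX in both, WA and WC over WK were 0.77 and 0.955 for ETV4. HT-1376 KK, a single library, enters each of the first ratios.

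The comparisons of each variant with KK, over the lines as replicates, share the KK libraries. In limma each called 0 of the 13022 genes. WC/KK had 84 genes (0.645%) with an unadjusted p below 0.05, while WA/KK had 37 (0.284%), WK/KK 38 (0.292%), KC/KK 11 (0.0845%) and KA/KK 7 (0.0538%), no member among them. Without a block edgeR called none, and DESeq2 called between 2 and 9 genes in each, again no member. With the line as a block the counts in limma were still 0, and edgeR called 5 genes in KC/KK, no member among them. The members ranged from -0.79 (ETV5) to 1.31 (FGFR3) in WK/KK, from -0.49 (FGFR2) to 1.09 (SPRY4) in KA/KK, from -1.09 (FGFR3) to 0.99 (DUSP6) in KC/KK, from -0.48 (FGFR2) to 0.78 (FGFR3) in WA/KK and from -0.84 (FGFR2) to 0.78 (FGFR3) in WC/KK. The SE of FGFR3 was 2.72 in each, with the lines as the replicates. The negative KC/KK value of FGFR3 came with the library labelled CAL-29 KC, at 0.06 CPM or 1 read, and without it the value was 0.28. That fit has no block and still counts CAL-29 KK as a control, so its groups are not matched by line. The log2 difference of KC and KK was -0.03 within RT-112 and 0.16 within HT-1376.

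The library labelled CAL-29 KC was set against the ranges of the lines. Of the 8 members, 6 lay within the range of HT-1376 and 4 within that of the other CAL-29 libraries. The share of all genes within these ranges was not counted. Besides FGFR3, it had 10.7 CPM of SPRY4, above the other CAL-29 libraries and within the range of HT-1376. DUSP6, at 87.0 CPM, lay above the other CAL-29 libraries and also above HT-1376 (highest 76.4 CPM). TACC3, at 56.2 CPM, lay above the other CAL-29 libraries (highest 54.4 CPM) and below HT-1376 (lowest 60.1 CPM). FGF11 was at 0 CPM in it and at 15.3 to 32.4 CPM in the other CAL-29 libraries, and FGF12 was at 2.56 CPM, within the range of HT-1376 (1.48 to 7.32 CPM), and at 0 in the other CAL-29 libraries. With 1 read, FGFR3 in this library was under the limit that a count of 0 allows.

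The other ERK feedback and readout genes were tested as a list of 20, of which 16 passed the filter. In HT-1376, 2 rose with WWOX (4.70% of all genes did) and none fell (5.05%), with a median of 0.35 against -0.13 over all genes. LIF, a cytokine, was 21.2, 8.05 and 11.2 CPM in WK, WA and WC and 0.07, 0.96 and 3.12 CPM in KK, KA and KC, a difference of 3.16 ± 0.55 (adjusted p = 0.0112, and 0.0761 with all 18 libraries). DUSP7, an ERK phosphatase of the same class as DUSP6, was 51.0, 42.0 and 44.6 CPM against 10.3, 17.99 and 19.6 CPM, a difference of 1.54 ± 0.41 (adjusted p = 0.0466), and it failed on leaving out any RT-112 or HT-1376 library (adjusted p 0.0709 to 0.315). For neither gene did the groups overlap. In RT-112 and CAL-29 none of the 16 passed, with medians of 0.25 and -0.35. Between RT-112 and CAL-29, EGR1, an immediate early gene, and CCND1, the cyclin D1 gene, were lower in RT-112 by -5.42 ± 0.52 and -2.77 ± 0.23, and DUSP9, another phosphatase of MAP kinases, was higher by 4.88 ± 0.33. DUSP9 lay at 49.8 to 111 CPM in RT-112 against 0.79 to 3.20 CPM in CAL-29 and 1.02 to 6.97 CPM in HT-1376. DUSP4, a nuclear phosphatase, was lower in RT-112 than in HT-1376 by -2.59 ± 0.37. Of the 16 genes 2 were higher and 7 lower in RT-112 than in HT-1376 (19.2% and 42.7% of all genes), 3 and 7 in RT-112 than in CAL-29 (15.3% and 56.2%), and 3 and 4 in HT-1376 than in CAL-29 (17.6% and 43.4%).

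**Figure D4:**
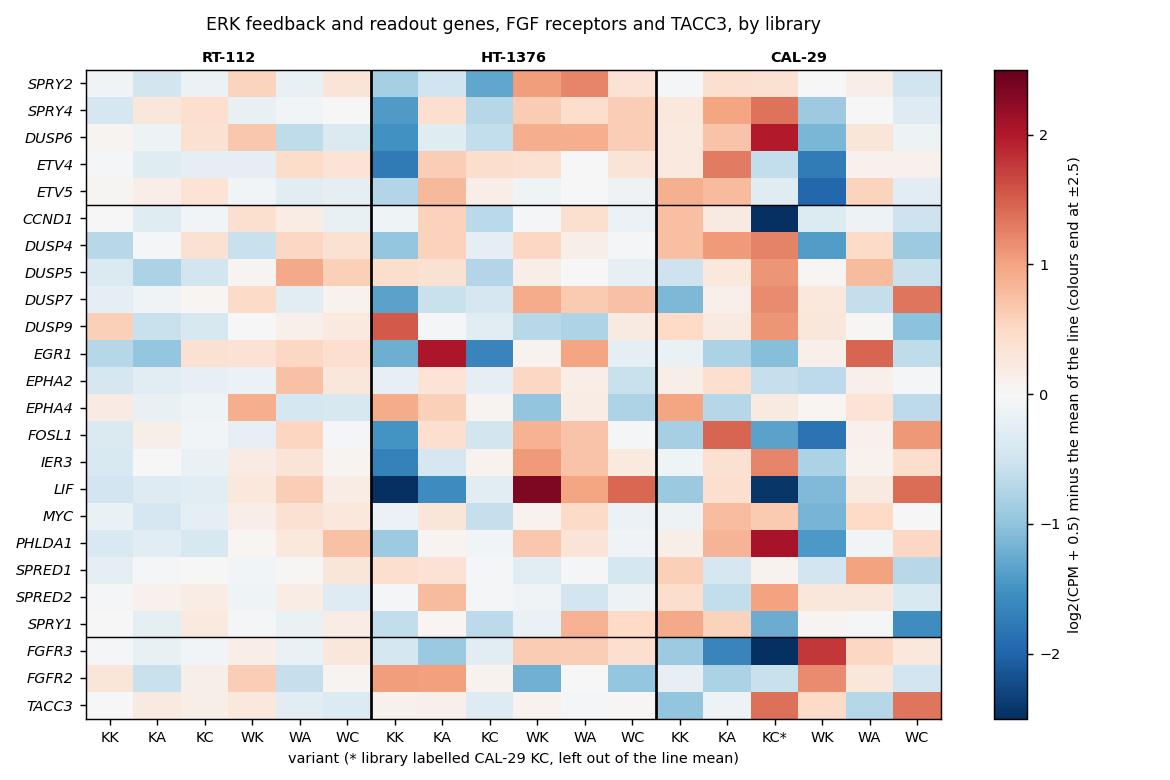
Level of each gene in each library as log2(CPM + 0.5) minus the mean of its line, for the 5 feedback members, the 16 other feedback and readout genes past the filter, and FGFR3, FGFR2 and TACC3, with colours ending at a difference of 2.5 either way and an asterisk at the library labelled CAL-29 KC. In HT-1376 the column of KK is blue for SPRY4, DUSP6, ETV4, ETV5 and LIF, and in CAL-29 the column of WK is blue for SPRY4, DUSP6, ETV4 and ETV5 and red for FGFR3.

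Of the 22 FGF ligands 5 were analysed here and 2 passed the filter. FGF11, an intracellular member of the family that does not bind the receptors, lay at 15.3 to 32.4 CPM in the 5 CAL-29 libraries and at 0 to 0.11 CPM, or at most 2 reads, in RT-112. The fitted difference of FGF11, -5.36 ± 0.24, ranged from -8.27 in DESeq2 to -3.53 with a pseudocount of 2 CPM. FGF12, of the same subfamily, had no reads in RT-112 or in the 5 CAL-29 libraries. FGF1 and FGF2, which bind the receptors, were at most 3.69 and 1.40 CPM. Of 9 co-receptors and binding proteins past the filter, FGFBP1, which releases FGFs from the matrix, was lower in RT-112 than in HT-1376 by -3.11 ± 0.54, and FLRT3 and FLRT2, membrane proteins that bind FGF receptors, were lower in HT-1376 than in CAL-29 by -3.499 ± 0.46 and -2.68 ± 0.60. FLRT2 rose with WWOX in HT-1376 (4.70, 6.90 and 0.93 CPM against 0, 0.40 and 0.14 CPM, difference 2.53 ± 0.53, adjusted p = 0.0227), a call lost with a pseudocount of 2 CPM (0.08055), with all 18 libraries (0.155) and without HT-1376 KK, KA, WK or WA (0.12 to 0.196). KL, the gene of the co-receptor klotho, had no reads in RT-112 or HT-1376, and in CAL-29 it was 11.1, 3.87 and 1.29 CPM in WK, WA and WC and 1.68 and 1.49 CPM in KK and KA, overlapping. KL reached 5 CPM in CAL-29 WK alone, so that its place among the genes tested rested on a WWOX library, and no test of it is given.

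Of the genes of the cascade between receptor and ERK 19 passed the filter, and none of these passed for WWOX within any line. Between RT-112 and CAL-29, 12 were lower and 5 higher in RT-112 (56.2% and 15.3% of all genes, the share of the lower ones being near this), with a median of -1.50 against -0.84 over all genes, and with TMM scaling -0.79 against -0.14. NRAS, of the RAS family, was lower by -3.96 ± 0.29, BRAF, a RAF kinase, by -2.05 ± 0.31 and SOS2, a RAS exchange factor, by -2.01 ± 0.40. NRAS was 2.05 to 3.65 CPM in RT-112, 8.54 to 35.7 CPM in HT-1376 and 32.4 to 75.9 CPM in CAL-29. Of the 8 genes of the TACC family and around FGFR3, TACC2 and TACC1, relatives of TACC3, were lower in RT-112 than in CAL-29 by -1.80 ± 0.26 and -1.27 ± 0.42, the latter lost without CAL-29 WK or WA (adjusted p 0.0605 and 0.0647) and with TMM scaling (0.231), edgeR (0.171) and DESeq2 (0.208). In HT-1376 TACC1 was 8.60, 12.5 and 12.6 CPM with WWOX and 25.0, 31.3 and 28.3 CPM without (-1.30 ± 0.21, adjusted p = 0.0089), and SLBP, the histone mRNA binding protein gene next to TACC3, 47.1, 64.8 and 51.9 CPM against 119, 167 and 87.5 CPM (-1.14 ± 0.25, adjusted p = 0.0248). TACC1 and SLBP failed without HT-1376 KK, KA, WK or WA, and SLBP also without RT-112 KA or WA (adjusted p 0.0506 to 0.188), with edgeR (0.0504) and, like TACC1, with all 18 libraries (0.077 and 0.103).

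The genes whose pattern was most like a member's were taken by Pearson correlation over 17 libraries after the mean of the line was subtracted, the libraries of a line sharing the cells they came from. For FGFR3 these were CLEC2B (r = 0.95), AFAP1-AS1 (0.92), RNF128 (0.92), GABRE (0.90) and CCDC28B (0.89). In HT-1376 alone, with 6 libraries, their r with FGFR3 was 0.85 to 0.99, but in the 6 libraries of RT-112 it was 0.17 for CLEC2B, 0.43 for AFAP1-AS1, -0.33 for RNF128, -0.35 for GABRE and 0.61 for CCDC28B. For DUSP6 they were ABHD6 (r = 0.93), IGFBP6 (0.92), QDPR (0.91), LYPD3 (0.90) and CRISPLD2 (0.89), at 0.58 to 0.97 in RT-112 and 0.92 to 0.98 in HT-1376. The libraries of each line were among the 17 by which these genes were picked, so a high r within a line is no separate check. FGFR3 had only 0 to 17 reads in each HT-1376 library. AFAP1-AS1 is an antisense gene whose tags are uncertain where strand was not counted. Among the members, DUSP6 and SPRY4 had r = 0.82 over the 17 libraries (Spearman's rho 0.73), with 0.91 in HT-1376 and 0.03 in RT-112. ETV4 and ETV5 had r = 0.75 (rho 0.30), but 0.80 in HT-1376 and -0.86 in RT-112. FGFR3 and DUSP6 had r = 0.27 in RT-112, 0.79 in HT-1376 and, over only 5 libraries, -0.89 in CAL-29, so that no value over the lines is given for them. FGFR3 and ETV5 had r = -0.74 (rho -0.51), with -0.85 in CAL-29 and -0.38 in each of the other lines.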

How the data were processed

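CAGE-seq was done on 18 libraries, 1 for each of 6 variants in each of 3 cell lines. Per the methods, the authors mapped single-end reads with BWA and then HISAT2 (2.0.5 in the submitters' processing notes) to hg38, clustered tags with Paraclu and RECLU under an IDR filter, and deposited CPM per gene, rounded to 2 decimals. Whether tags were counted by strand is not given in the sources used here. The step of 1 read was recovered from the CPM values (at least 99.97% of values whole to within 0.0051 CPM, against 18.5% to 31.5% with a step slightly too large), the step of RT-112 WC from all genes together, and the resulting reads were used for depth and for the edgeR 4.0.16 and DESeq2 1.42.0 alternatives. The limit from 3 reads covers counting error only.

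The 13022 genes that reached 5 CPM in 1 library or more were tested as log2(CPM + 0.5) in limma 3.58.1 (R 4.3.3) with trended empirical Bayes variance, two-sided, with Benjamini-Hochberg adjustment over all of them at 0.05. Such differences understate changes of low genes. The KK comparisons used 18 libraries without a block. The line contrasts, the WWOX and AP-2 effects over the lines, and the WWOX effect within each line with its interaction used 17, without the library labelled CAL-29 KC, and had the line as a term, with 1 variance shared by the lines. Alternatives were another pseudocount or filter, TMM scaling, limma-voom, edgeR, DESeq2, a line block or none, and each library or line left out. By their labels, libraries of 1 line come from the same cells, which pairs them. Deviations from the variant means correlated at 0.742 to 0.915 for RT-112 and 0.588 to 0.896 for HT-1376. For CAL-29 they correlated at 0.036 to 0.881, with the library labelled CAL-29 KC included. Scripts were tested on simulated data. Members and lists were chosen with earlier results of these data known. Of each pathway list, up to 4 genes with the largest called line contrast were named, and any gene with a called WWOX or AP-2 effect. A gene that this rule names is not reported here. FGF1 and FGF2 were named after their values were seen. Columns for each sample in separate files were not used here.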

Additional observations from a re-analysis of the deposited data

Results flagged for a closer look

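The effect of WWOX differed between the lines by the interaction test for FGFR2 (adjusted p = 0.03679 in limma), FGFR3 (0.0418) and SPRY2 (0.04898). On the log2 scale the WWOX difference of FGFR2 was -1.45 for HT-1376, 1.24 for CAL-29 and 0.08 for RT-112. In the same order it was 1.11, 2.42 and 0.19 for FGFR3, and 1.75, -0.10 and 0.46 for SPRY2. All 3 were lost in edgeR, with all 18 libraries, and on leaving out any one RT-112 library. A gap test on CPM flagged no library in the 30 groups of a member in a line, where chance would flag about 1 in 20. The library labelled CAL-29 KC was left out of these groups. The test was not run on the log2 scale of the fits, where low values lie further apart. ETV4 in HT-1376 KK was 3.16 CPM, against 12.0 to 18.6 CPM in the other HT-1376 libraries.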

How the results depend on the processing

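The KK comparisons gave 0 genes in limma under every filter and pseudocount and on leaving out each line in turn (0 to 0), and DESeq2 gave 9 for WC/KK, 4 for KC/KK, 3 for WK/KK, 3 for WA/KK and 2 for KA/KK. With the line as a replicate block edgeR gave 5 genes in KC/KK, and the block changed no other call in these comparisons. FGFR3 in KC/KK was 0.2832 without the library labelled CAL-29 KC, 0.2734 with the block as well (an alternative chosen after seeing the data), and -1.719 to 0.06257 on leaving out a line. FGFR3 in WA/KK was -0.08315 in edgeR without block and -0.08458 in DESeq2. The cause was not tested.

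WWOX over the lines gave 16 genes in edgeR and 225 in DESeq2, AP-2α 1 and 1, and AP-2γ 2 and 12. WWOX within RT-112 gave 1 gene with TMM scaling and 54 in DESeq2, within HT-1376 141 with all 18 libraries, and within CAL-29 182 with no filter, 2 in edgeR, 269 in DESeq2 and 51 with all 18 libraries. The interaction gave 572 with no filter, 183 in edgeR, 1103 in DESeq2 and 7 with all 18 libraries. On leaving out 1 library the counts ranged from 7245 to 8283, 8693 to 9351 and 6809 to 8218 in the line contrasts, 0 to 1 for WWOX over the lines, 0 to 0 for AP-2α and AP-2γ, 0 to 1 within RT-112, 184 (without HT-1376 KK) to 3452 (without CAL-29 WA) within HT-1376, 19 (without RT-112 KK) to 1718 (without CAL-29 KK) within CAL-29, and 0 (without RT-112 KA) to 3587 (without CAL-29 KK) for the interaction. Over the single genes, 1338 values kept direction and side of the threshold, 142 lost the call, 18 gained it and 5 changed direction. Depth limits FGFR1, FGFR4 and, in HT-1376, FGFR3.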
